A study of Mus musculus with 4 samples.

Results

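Genes that keep T cells quiescent or guide them through lymphoid organs were examined as a set of 9 chosen by gene symbol: Klf2, Klf3, S1pr1, Foxo1, Foxp1, Tcf7, Lef1, Bach2 and Satb1. The platform annotation paired 8 of the 25697 probes with 7 of these genes, 2 of them with Lef1. No probe was paired with Tcf7 or Bach2, which were not analysed here. The cells were Foxp3-GFP+ regulatory T cells (Treg) sorted from spleens of C57Bl/6 mice aged 8 to 12 weeks, and all had been stimulated overnight with anti-CD3. The OX86 group (2 arrays) also received OX86, a rat monoclonal antibody that activates the costimulatory receptor OX40. The isotype group (2 arrays) received rat IgG instead. Transcripts were measured on Illumina bead arrays. All 4 arrays were of activated cells, so no level could be set against a resting level.

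In resting T cells the forkhead factor Foxo1 drives Klf2, a zinc-finger factor, and Klf2 in turn drives S1pr1, the receptor for sphingosine 1-phosphate through which lymphocytes leave lymphoid organs. Signalling through the T-cell receptor activates Akt, which moves Foxo1 protein out of the nucleus, and the transcripts of this circuit usually decline on activation. Foxp1, Lef1, Tcf7, Bach2 and Satb1 are transcription or chromatin factors that maintain the naive or early state of T cells, and Satb1 is known as a gene that Foxp3 represses. These are facts of the field, not results of the arrays.

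Whether the numbered arrays of a group came from different animals or cultures is not stated in the labels. The p-values therefore cover the spread among these arrays alone, and that spread may be technical. Between 45.9% and 53.2% of probes were detected per array at a detection p under 0.05, and the lowest share was on isotype 2. Isotype 2 also stood apart after normalization, with correlations of 0.968 to 0.972 with the others across 13338 tested probes, against 0.981 to 0.985 for pairs without it. Results that lean on it are given with and without it, except for the marker Ms4a1. All 10 listed markers of T cells and Treg were detected on all 4 arrays. The brightest Foxp3 probe had log2 signals of 12.71 and 12.95 on the OX86 arrays and 12.75 and 12.76 on the isotype arrays. Cd3e, Cd4, Il2ra and Tnfrsf4, which encodes OX40, differed between the groups by -0.086, -0.062, -0.016 and 0.15 in log2 signal, and none passed the test described below. Among markers of other cells, Pax5, Ebf1 and Blk (B cells), Itgam, Itgax and Flt3 (myeloid cells) and Cd8a, Ncr1, Klrb1c and Gzma (cytotoxic lymphocytes) were not detected on any array, while 3 of 9 B-cell, 3 of 11 myeloid and 4 of 8 cytotoxic markers were detected on all 4. Of those detected on all 4, Cst3 and Siglech (myeloid), Cd8b1 (cytotoxic) and Fcer2a (B cells) had mean log2 signals of 11.40, 9.86, 9.63 and 8.94. Cd4 had 8.90, and the rest of those B-cell, myeloid and cytotoxic markers were dimmer than Cd4. The 4 of 9 B-cell markers that were tested had mean log2 signals of 7.18 and 6.94 on the OX86 arrays and of 6.91 and 7.02 on the isotype arrays. Of these, Ms4a1 was detected on 3 arrays but not on isotype 2 (detection p 0.476). It had 6.38 and 6.18 with OX86 and 5.79 and 5.15 with isotype, the last being the isotype 2 value. The log2 difference was 0.81 (95% interval 0.13 to 1.49), with an unadjusted p of 0.027 in limma that did not pass adjustment. Its difference without isotype 2 was not computed. The other 3 were lower in mean with OX86. The haemoglobin gene Hba-a1 had 10.11 and 9.14 with OX86 and 10.69 and 9.26 with isotype, so array 1 was brighter in each group. The part of these cells in the values below was not tested.

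Messages of 6 of the 7 measured genes were detected on all 4 arrays after overnight activation. Klf2, Klf3, Foxo1, Foxp1, Lef1 and Satb1 had a detection p of 0 on every array, meaning that no negative control bead was as bright. S1pr1 was not detected on any array. For none of the 6 detected genes did OX86 and isotype arrays differ by the test, and the log2 differences lay between -0.090 (Satb1) and 0.19 (Klf2). Because the arrays measured bulk RNA, fewer cells that contain a message and less message per cell cannot be told apart.

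**Figure D1:**
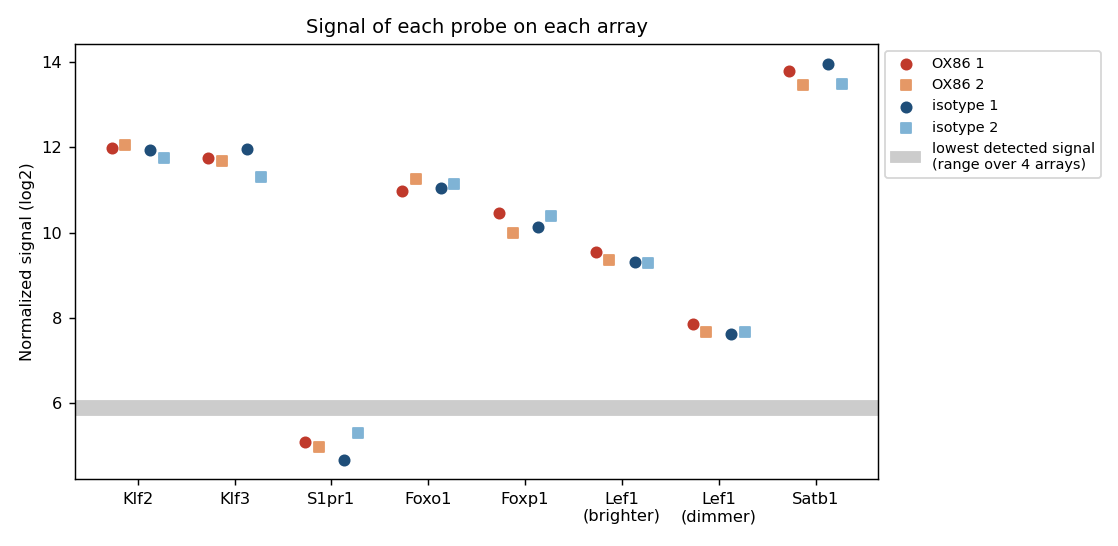
Normalized log2 signal (vertical axis) of the 8 probes on each array, with OX86 arrays left and isotype arrays right within each gene. The grey band marks the lowest detected signal of the 4 arrays, 5.71 to 6.05. The 4 S1pr1 points lie below the band and all other points above it.

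Foxo1, at the top of the circuit, was read by 1 probe (ILMN_2656498). Its deposited intensities were 2246 and 2857 on the OX86 arrays and 3176 and 1585 on the isotype arrays. After normalization the log2 signals were 10.98 and 11.26 with OX86 and 11.06 and 11.15 with isotype. The OX86 pair enclosed the isotype pair, so the groups overlapped completely. The means were 11.12 ± 0.19 with OX86 and 11.10 ± 0.068 with isotype (SD, n = 2 each), a log2 difference of 0.015 with a 95% interval of -0.50 to 0.53. It was 0.15 without OX86 1 and -0.12 without OX86 2. All Foxo1 signals lay 5.10 to 5.44 log2 units above the lowest detected signal of the same array. Foxo1 was the only gene of its family detected, since probes for Foxo3, Foxo4 and Foxo6 were not detected on any array. Foxo3 and Foxo4 were each read by a single probe, so a failed probe and a low message level cannot be told apart for them.

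Klf2 (ILMN_2604029) is the Foxo1 target that maintains quiescence and the expression of homing receptors. Its intensities were 4218 and 4820 on the OX86 arrays and 5626 and 2267 on the isotype arrays. The normalized log2 signals were 11.99 and 12.06 with OX86 and 11.94 and 11.75 with isotype. Both OX86 values lay above both isotype values, by a margin of less than the gap between the isotype arrays. The means were 12.03 ± 0.053 with OX86 and 11.84 ± 0.14 with isotype (SD, n = 2 each). The log2 difference of 0.19 had a 95% interval of -0.30 to 0.67, or 0.81-fold to 1.60-fold, and limma gave a Benjamini-Hochberg adjusted p = 0.9999. The difference was 0.089 without isotype 2 and 0.28 without isotype 1.

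S1pr1 (ILMN_2747124), the egress receptor that Klf2 is known to drive, was the member below detection. Its detection p was 0.494 and 0.618 on the OX86 arrays and 0.956 and 0.342 on the isotype arrays. The intensities were 275.0 and 272.0 with OX86 and 235.2 and 275.6 with isotype, all under the lowest detected intensity of each array, which ranged from 302.2 to 320.4. In normalized units the 4 signals lay 0.76 to 1.04 below the lowest detected signal. S1pr1 did not enter the test and no fold is given, because neither group was above background. A single probe read this gene and its sequence was not used here, so a failure of the probe and a low message level cannot be told apart.

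Other sphingosine 1-phosphate receptors gave signal on the same arrays. S1pr4 had log2 signals of 8.02 and 8.08 with OX86 and 8.27 and 8.44 with isotype, a difference of -0.30 with an interval of -0.79 to 0.18. The brighter S1pr5 probe had 6.99 and 7.01 with OX86 and 7.19 and 7.18 with isotype. Both OX86 arrays thus lay below both isotype arrays for S1pr4 and for this S1pr5 probe, as they did for 13.1% of all tested probes, and neither passed the test. The other S1pr5 probe was not detected on any array, and S1pr2 and S1pr3 were each detected on 3 arrays.

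Klf3 (ILMN_2432110) encodes a repressor of the same zinc-finger family. It was the member with the widest spread within a group. Its intensities were 3700 and 3760 on the OX86 arrays and 5715 and 1727 on the isotype arrays. After normalization, log2 signals of 11.75 and 11.68 with OX86 lay between the isotype values of 11.96 and 11.31. The means were 11.72 ± 0.050 with OX86 and 11.64 ± 0.46 with isotype (SD, n = 2 each). The log2 difference was 0.078 (95% interval -0.59 to 0.74). It was -0.24 without isotype 2 and 0.40 without isotype 1, so the sign rested on which isotype array was kept.

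The Klf family as a whole had 16 genes with a probe. Of these, Klf2, Klf3, Klf5, Klf6, Klf7, Klf9, Klf10, Klf13, Klf16 and Klf17 each had a probe detected on 4 arrays. That of Klf17 lay only 0.060 to 0.34 log2 units above the lowest detected signal of each array. The other Klf17 probes were detected on 2 and 0 arrays. Klf4, which also restrains T-cell proliferation, was detected on at most 2 arrays by any of its probes. Klf1, Klf8, Klf11, Klf12 and Klf15 were not detected on any array.

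Foxp1 (ILMN_1252078) is a forkhead factor needed to keep naive T cells quiescent. Its intensities were 1649 and 1357 with OX86 and 1792 and 1033 with isotype. The log2 signals were 10.45 and 10.00 on the OX86 arrays and 10.13 and 10.39 on the isotype arrays. The OX86 arrays were farther apart than the isotype arrays and enclosed them. The means were 10.23 ± 0.32 with OX86 and 10.26 ± 0.18 with isotype (SD, n = 2 each), a log2 difference of -0.037 (95% interval -0.64 to 0.57). It was -0.27 without OX86 1, 0.19 without OX86 2, -0.17 without isotype 1 and 0.093 without isotype 2.

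Satb1 (ILMN_1220726), which encodes an organizer of chromatin loops, lay 7.43 to 8.25 log2 units above the lowest detected signal of each array. Its intensities were 14644 and 12282 on the OX86 arrays and 20671 and 7102 on the isotype arrays. The log2 signals were 13.79 and 13.47 with OX86 and 13.96 and 13.48 with isotype. In each group array 1 was brighter than array 2, and the groups overlapped. The means were 13.63 ± 0.22 with OX86 and 13.72 ± 0.34 with isotype (SD, n = 2 each), a log2 difference of -0.090 (95% interval -0.72 to 0.54). It was -0.25 without OX86 1, 0.068 without OX86 2, 0.15 without isotype 1 and -0.33 without isotype 2.

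Lef1 encodes a high-mobility-group factor of the Wnt pathway that acts with Tcf7 in early T cells, and it was read by 2 probes. The brighter one (ILMN_2648475) had log2 signals of 9.55 and 9.36 with OX86 and 9.31 and 9.29 with isotype. The means of the brighter probe were 9.46 ± 0.13 with OX86 and 9.30 ± 0.017 with isotype (SD, n = 2 each). The dimmer one (ILMN_1239469) had 7.86 and 7.66 with OX86 and 7.62 and 7.66 with isotype. On both probes OX86 1 was the highest array and the other 3 lay close together. The log2 difference was 0.16 (95% interval -0.32 to 0.65) at the brighter probe and 0.12 (-0.37 to 0.61) at the dimmer one. Without OX86 1 these were 0.067 and 0.020. The groups did not overlap at the brighter probe and did at the dimmer one.

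**Figure D2:**
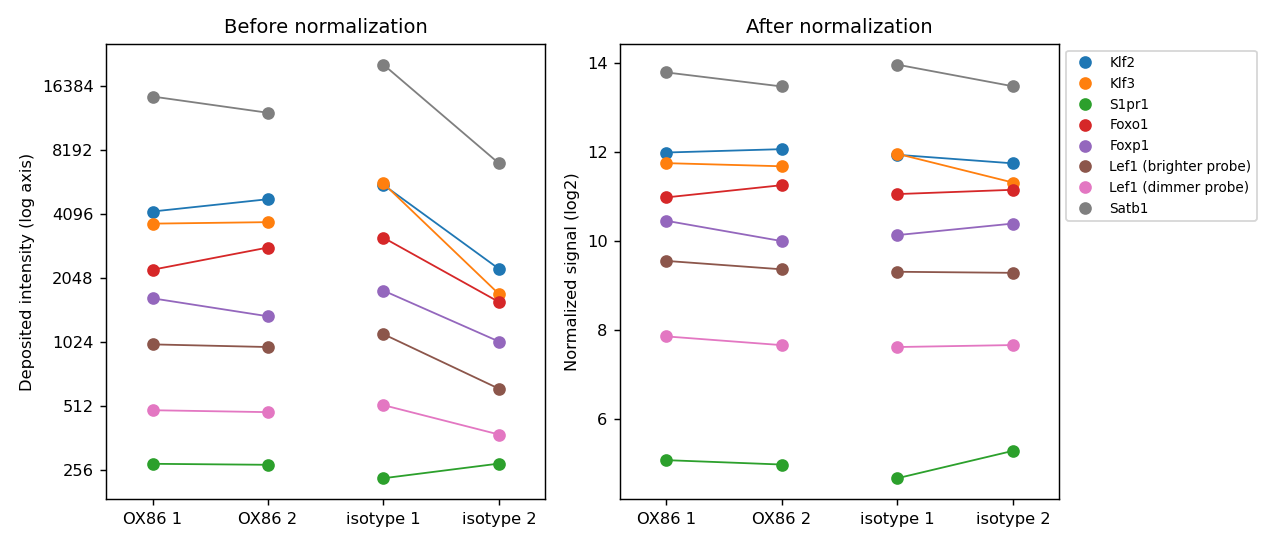
Deposited intensity (left panel, log axis) and normalized log2 signal (right panel) of the 8 probes on the OX86 and isotype arrays. Lines join the arrays of 1 group. Before normalization isotype 1 lies above isotype 2 for every probe except S1pr1, and after normalization the isotype gap is largest for Klf3, at 0.64.

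Much of the spread in the deposited intensities followed the array. The intensity of isotype 1 over that of isotype 2 was 1.37 to 3.31 for the 7 tested probes of these genes, with a median of 1.43 over all tested probes. After normalization the isotype gap was 0.64 for Klf3, 0.49 for Satb1 and 0.26 or less for the other tested probes. The median isotype gap over all tested probes was 0.29, so Klf3 and Satb1 were the members above it. Between the OX86 arrays the gap was 0.46 for Foxp1, 0.32 for Satb1 and 0.27 for Foxo1, against a median of 0.22 over all tested probes.

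By limma, 0 of the 7 probes had an adjusted p (Benjamini-Hochberg) under 0.05, and 0 had an unadjusted p under 0.05. Over all 13338 tested probes 0% passed and 3.33% had an unadjusted p under 0.05. In mean, 5 of the probes were higher with OX86 and 2 lower, where 51% of all tested probes were higher. The groups did not overlap for 2 of 7, the Klf2 probe and the brighter Lef1 probe, both higher with OX86, against 26.9% of all tested probes in either direction. The median log2 difference was 0.078 over the 7 probes and 0.0051 over all tested probes. For all 7 the difference between groups was smaller than the larger of the gaps within a group. The share of all tested probes for which this held was not computed. Over all tested probes the median absolute difference was 0.15, and the median gaps were 0.29 (isotype) and 0.22 (OX86). The 95% intervals had half-widths of 0.49 to 0.67 on the log2 scale, and their outer bounds were 0.61-fold (Satb1) and 1.67-fold (Klf3). A difference smaller than the half-width of its interval could not be told from none with 2 arrays a group.

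**Figure D3:**
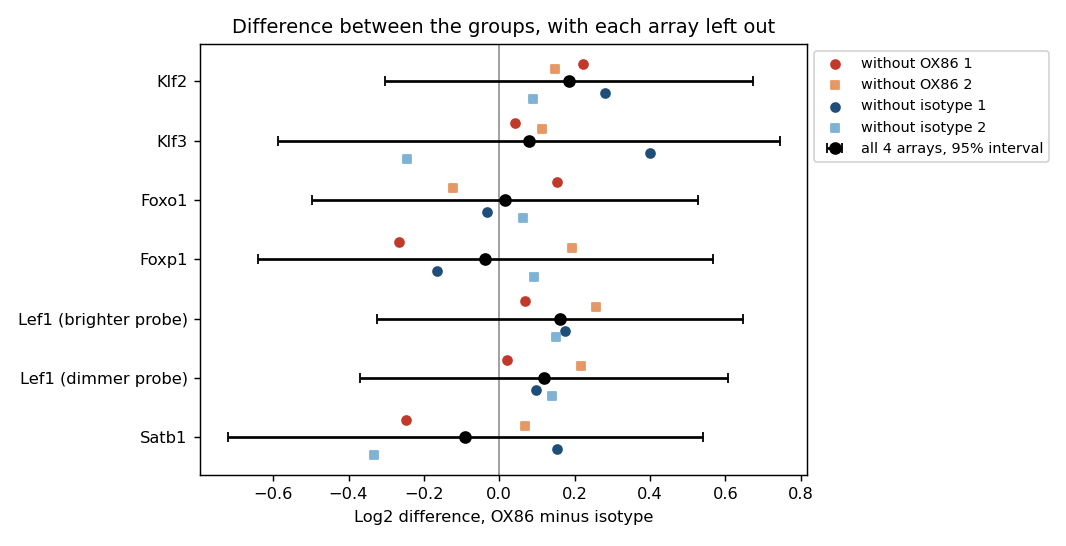
Log2 difference, OX86 minus isotype (horizontal axis), of the 7 tested probes. Black points with bars are all 4 arrays with 95% intervals, and coloured points leave out a single array. Every interval crosses 0, and the points for Klf3, Foxo1, Foxp1 and Satb1 fall on both sides of 0.

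Other genes of quiescence were mostly detected, and none passed the test. The list held 24 genes, 16 of them detected on all 4 arrays, among them the antiproliferative Btg1, Tob1 and Tob2 and the cell cycle inhibitor Cdkn1b. Btg2 was detected on 1 array only and was not tested. Of the 24 genes, 20 were tested. In mean 14 were higher and 6 lower with OX86, where 51% of all tested probes were higher. In limma 0 passed, nor did any have an unadjusted p under 0.05. The groups did not overlap for 7 genes higher and 1 lower, where the shares over all tested probes were 13.9% and 13.1%. The median log2 difference was 0.073, against 0.0051 over all tested probes. Without isotype 2, 10 of the 20 were higher.

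Slfn2, whose loss in mice breaks T-cell quiescence, had log2 signals of 9.88 and 9.67 with OX86 and 9.47 and 9.26 with isotype. Its difference was 0.41 (95% interval -0.10 to 0.92), and the groups did not overlap. Klf13, known as an activator of the chemokine gene Ccl5 in T cells, had 11.57 and 11.59 with OX86 and 11.32 and 11.17 with isotype, a difference of 0.34 (-0.14 to 0.82). Its groups did not overlap either. Leaving out an array gave 0.31 to 0.52 for Slfn2 and 0.26 to 0.42 for Klf13. With groups that do not overlap, leaving out an array cannot reverse the sign. Neither gene passed the test.

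Tob1, an inhibitor of T-cell proliferation, had 9.14 and 8.95 with OX86 and 8.89 and 7.77 with isotype. Isotype 2 was the low array, and the difference of 0.72 (-0.24 to 1.68) was 0.16 without it. Dapl1 had 6.33 and 6.98 with OX86 and 6.72 and 7.51 with isotype. Its difference of -0.46 (-1.34 to 0.43) was -0.066 without isotype 2.

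Homing and retention genes also had 0 calls. Of 12 genes of the list with a probe, 9 were detected on all 4 arrays and 10 were tested. In mean 6 were higher and 4 lower with OX86, and 0 passed in limma or had an unadjusted p under 0.05. Over all tested probes 51% were higher in mean. The groups did not overlap for 3 genes higher and 2 lower, where the shares over all tested probes were 13.9% and 13.1%. The median log2 difference was 0.12, against 0.0051 over all tested probes, and 4 of the 10 were higher without isotype 2.

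Ccr7, the chemokine receptor that guides T cells into lymph nodes, had log2 signals of 10.34 and 10.17 with OX86 and 10.28 and 9.60 with isotype. Isotype 2 was again lowest, and the difference of 0.31 (95% interval -0.38 to 1.01) was -0.030 without it. Il7r, the interleukin-7 receptor chain and a known Foxo1 target, had 12.21 and 12.49 with OX86 and 12.65 and 12.03 with isotype at its brightest probe. The groups overlapped, with a difference of 0.0084 (-0.67 to 0.69) that was -0.30 without isotype 2. Cd69, whose protein binds S1pr1 and takes it off the cell surface, was detected on all arrays, with 11.97 and 11.77 with OX86 and 12.31 and 11.77 with isotype. Its difference was -0.17 (-0.79 to 0.46), -0.44 without isotype 2 and 0.098 without isotype 1.

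Cxcr4, a receptor for retention in marrow and lymphoid tissue, had 11.92 and 12.06 with OX86 and 11.72 and 11.57 with isotype. Its groups did not overlap, and the difference was 0.35 (95% interval -0.14 to 0.84), or 0.27 without isotype 2. Gpr183, an oxysterol receptor that positions lymphocytes, had a difference of 0.24 (-0.24 to 0.71), and the integrin gene Itga6 had 0.27 (-0.26 to 0.80). The Itga6 difference was 0.12 without isotype 2.

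**Figure D4:**
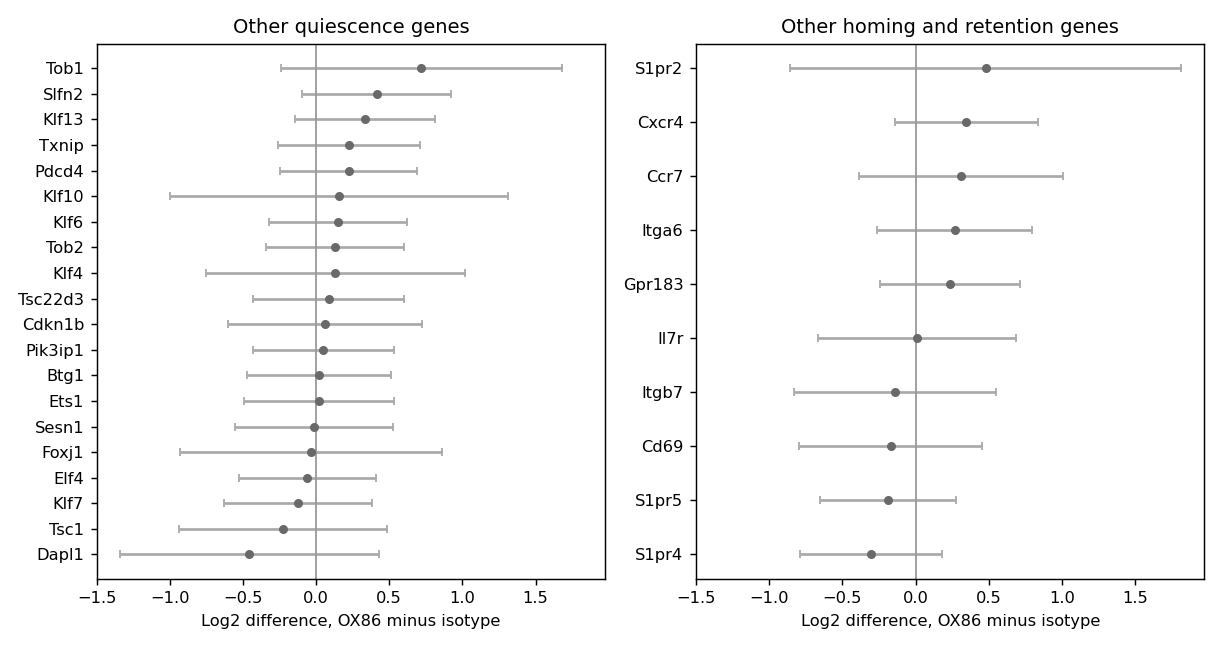
Log2 difference, OX86 minus isotype (horizontal axis), with 95% intervals, of the 20 tested quiescence genes (left panel) and the 10 tested homing and retention genes (right panel) outside the set of 9, each by its brightest probe. Every interval crosses 0, from Dapl1 at -0.46 to Tob1 at 0.72 on the left.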

How the data were processed

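The deposited table of the authors held a linear intensity and a detection p-value for every probe on every array. The submitters' processing notes name BeadStudio, with version and settings not given in the sources. A second table deposited by the authors held processed intensities, also linear. At least 99.98% of these were within 1% of the first table after quantile normalization alone. They served as an alternative.

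Signals were processed in R 4.3.3 with limma 3.58.1 and its neqc function (normal-exponential background from the detection p-values, offset 16, quantile normalization, log2). Probes detected at p under 0.05 on at least 2 arrays were tested, 13338 of 25697. Gene symbols came from the platform annotation, with 23978 probes named, and symbols of all 8 probes matched RefSeq by Entrez number. Groups were compared with lmFit and eBayes, two-sided, with Benjamini-Hochberg adjustment over all tested probes, a threshold of 0.05 and no covariate. A gene with several probes is given by its brightest tested one. The calculation was tested on simulated data, in 5 draws with 200 of 13338 probes changed. On average it recovered 40.4% of 2-fold and 99.2% of 4-fold changes, with 14.8 false calls a draw.

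The members and lists were chosen with earlier results of these data known. All members, the genes Ccr7, Il7r and Cd69, and up to 4 further genes per list, by smallest unadjusted p, were named, as were Foxp3, Cd3e, Cd4, Il2ra and Tnfrsf4 as checks and whole gene families by symbol. Alternatives changed the background correction, normalization, filter, array weights and pairing, or left out an array.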

Additional observations from a re-analysis of the deposited data

How the results depend on the processing

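Across 13 alternatives the values of the 7 tested probes kept their sign in 81 of 90 cases. Many of these cases could not change sign. Array weights, the replicate block and changes of the filter left the difference of each probe as it was. Averaging probes did the same for genes with a single tested probe. The authors' processed values nearly repeated quantile normalization without background correction, so these were not separate checks. Limma with Benjamini-Hochberg adjustment called 0 probes under each alternative that kept every array. The count of all tested probes at an unadjusted p under 0.05 was 444, and ranged from 102 (median scaling) to 1540 (without isotype 1). Klf2 and both Lef1 probes kept a positive difference throughout, with 0.089 to 0.28 for Klf2 when an array was left out. For Klf2 and the brighter Lef1 probe the groups did not overlap, so leaving out an array could not reverse the sign. Leaving out an array gave -0.24 to 0.40 for Klf3, -0.12 to 0.15 for Foxo1, -0.27 to 0.19 for Foxp1, -0.33 to 0.15 for Satb1, -0.030 to 0.65 for Ccr7, -0.30 to 0.31 for Il7r and -0.44 to 0.098 for Cd69, and 3 to 5 probes of the set without overlap between groups, where a lone array overlaps less often (58.4% to 73.6% of all tested probes did not overlap). Median scaling moved the median difference of all tested probes by 0.11. It gave 0.11 for Foxp1 and 0.090 for Satb1, opposite in sign to the quantile-normalized values, and 0 of 7 probes without overlap, where the share over all tested probes was 15.2%, against 26.9% with quantile normalization. Relative to its median, 5 of the 7 probes were higher, as with quantile normalization. With the replicate number as a block, 0 probes passed and the count at an unadjusted p under 0.05 was 522. The numbers are not known to pair arrays, and the deviations of same-numbered arrays correlated at 0.066. The Lef1 difference was 0.14 with its probes averaged. With 2 arrays a group, each probe had 2 residual degrees of freedom in the main fit. To these eBayes added 3.68 prior degrees of freedom, estimated over all tested probes, so every interval borrowed spread from other probes. The quantity below the lowest detected signal (S1pr1) was not measured.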
